A study of Saccharomyces cerevisiae with 24 samples.

Results

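Sub-nucleosomal MNase-seq peaks were examined across the 6 replication initiation factor genes that the SSDDCS strain of budding yeast (Saccharomyces cerevisiae) carries in added, galactose-inducible copies, namely SLD2, SLD3, SLD7, DPB11, DBF4 and CDC45. Peaks were chosen by position alone, inside each coding sequence or up to 1000 bp upstream of the start codon. This gave 77 of the 58467 deposited peaks, 48 of them coding and 29 upstream. A further 25 peaks within 1000 bp past the stop codons of the same genes served as a second flank.

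Both strains were haploid W303 MATa cells with the alleles ade2-1, ura3-1 and his3-11, 15, together with trp1-1, leu2-3, 112, can1-100 and rad5-535, and both lacked SML1, an inhibitor of ribonucleotide reductase. In the control strain SML1 was replaced by URA3, and in the SSDDCS strain by a hygromycin marker, named HphNT in the labels and HphMX in the study's strain list. The SSDDCS strain also held 3 integrated constructs, each with a pair of the factor genes on either side of the divergent GAL1-10 promoter. The pairs were Sld7 and Cdc45 at leu2 (marked by LEU2), SLD3-A and Dbf4-A at his3 (HIS3), and Sld2 and Dpb11 at trp1 (TRP1). The meaning of the suffix A, the amount of flanking sequence in each construct and the number of integrated copies were not given in the sources used here. Each strain was 1 culture, arrested in G1 with alpha factor, given galactose before the G1 sample and then released into S phase in galactose. Libraries were made from G1 and at 5, 10, 15, 20, 25, 30, 35, 40, 45, 50 and 60 min, which gave 12 per strain and 1 per strain and time point. The 12 time points of 1 culture are not replicates, so no test between strains was possible. SDs below are over time points, and 95% intervals (Clopper-Pearson) cover counting error only.

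Origins are licensed in G1 by loading of the Mcm2-7 helicase core, and fire in S phase when that core is turned into an active helicase. Dbf4 is the regulatory subunit of the Cdc7 kinase, which phosphorylates Mcm2-7. Sld3, with its partner Sld7, brings Cdc45 to the phosphorylated Mcm2-7, and Sld2 and Sld3, once phosphorylated by cyclin-dependent kinase, bind Dpb11. Cdc45 stays in the moving helicase, while the others act at the firing step, and all are scarce relative to origins. MNase-seq at this fragment size recovers short stretches of DNA protected by proteins smaller than a nucleosome. Its signal in coding sequence is low, and it rises with the amount of template DNA as well as with protection, and these cannot be told apart in one measurement.

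The sequences below are the S288C reference (RefSeq, build R64) around the coding peak with the most reads in 5 of the genes. The genotype names each gene in a construct, but construct sequences were not given, so these bases were not checked there. They are printed in the direction of the gene, with no capitals. In SLD7 the peak shown tied for reads with a peak at 441005.
SLD2 (chrXI:235305-235365, plus strand): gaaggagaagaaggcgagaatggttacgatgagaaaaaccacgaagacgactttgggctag
SLD3 (chrVII:297750-297810, plus strand): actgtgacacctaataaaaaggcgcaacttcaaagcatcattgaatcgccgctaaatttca
SLD7 (chrXV:440625-440685, minus strand): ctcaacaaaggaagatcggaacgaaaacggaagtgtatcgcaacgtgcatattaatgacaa
CDC45 (chrXII:345808-345868, minus strand): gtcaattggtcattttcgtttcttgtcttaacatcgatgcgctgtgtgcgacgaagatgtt
DBF4 (chrIV:560508-560568, minus strand): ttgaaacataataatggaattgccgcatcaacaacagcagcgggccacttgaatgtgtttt

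Library totals were even, between 484807 and 536253 reads in peaks in the control strain and between 481930 and 518046 in the SSDDCS strain, and counts were scaled to the library total. Single peaks of these genes were shallow. The 48 coding peaks held between 17 and 121 control reads each over 12 libraries, so counts were summed over peaks and time points before ratios were taken. A pooled log2 ratio of SSDDCS to control of at least 0.5 was called higher and of -0.5 or below lower. The value of 0.5 lies midway on the log2 scale between equal copy number (0) and 2 copies over 1 (1).

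The question put to these peaks was whether the added copies could be read off from coding sequence against the flank that precedes it. Coding sequence of all 6 genes held more reads in the SSDDCS strain, and the upstream flank as a whole did not, although that of SLD2 was somewhat higher. Over all 48 coding peaks the reads went from 2403 in the control strain to 5547 in the SSDDCS strain, a pooled log2 ratio of 1.25 (interval 1.18 to 1.32), or 2.38-fold. Over the 29 upstream peaks they were 2593 and 2538, a log2 ratio of 0.01 (-0.07 to 0.09), and over the 25 peaks past the stop codons 1873 and 1694, a log2 ratio of -0.10 (-0.20 to -0.004). Of the flanks past the stop codons, only that of DPB11 was lower, at -0.57 (-0.80 to -0.34). Those of the other genes lay between -0.09 and 0.19, with intervals that included 0. Coding minus upstream was 1.24 (1.13 to 1.34).

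CDC45, which encodes the helicase component and sits in the LEU2-marked construct, had the highest coding ratio of the 6 genes. Its gene (YLR103C, chromosome XII, 343989 to 345941, minus strand) held 9 coding peaks. Their summed normalised reads had a lowest, median and highest value of 22.7, 37.7 and 51.1 in the control libraries and 81.3, 126.9 and 135.8 in the SSDDCS libraries. Every SSDDCS library lay above every control library, which held for 0.107% of the 5612 protein-coding genes with at least 200 coding reads. The pooled coding ratio was 1.65 (1.50 to 1.81), or 3.14-fold, on 449 control and 1363 SSDDCS reads, so its interval lay wholly above a log2 of 1. The 5 upstream peaks gave -0.14 (-0.34 to 0.06), and coding minus upstream was 1.79 (1.54 to 2.04).

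SLD7, the partner gene in the same construct, had the lowest coding ratio. SLD7 (YOR060C, chromosome XV, 440390 to 441163, minus strand) held 5 coding peaks with 21.9, 29.3 and 39.5 normalised reads (lowest, median, highest) in the control libraries and 34.4, 52.4 and 70.3 in the SSDDCS libraries. The strains overlapped, but 11 of 12 SSDDCS libraries lay above every control library. The pooled ratio was 0.84 (0.64 to 1.03), or 1.79-fold, and that of the 4 upstream peaks was -0.10 (-0.28 to 0.09). CDC45 exceeded SLD7 by 0.81 (0.57 to 1.06) and was the higher of the pair at 10 of 12 time points.

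DBF4, the gene of the kinase regulatory subunit, came second. DBF4 (YDR052C, chromosome IV, 558511 to 560625, minus strand) held 9 coding peaks, with 29.7, 41.2 and 50.2 normalised reads (lowest, median, highest) in the control libraries and 81.5, 102.9 and 124.2 in the SSDDCS libraries. The strains did not overlap. The pooled ratio was 1.32 (1.16 to 1.47), or 2.49-fold, against 0.01 (-0.19 to 0.20) for its 6 upstream peaks. SLD3, its partner under HIS3 (YGL113W, chromosome VII, 295932 to 297938, plus strand), held 8 coding peaks with 18.4, 22.9 and 36.6 normalised reads in the control libraries and 46.2, 54.9 and 70.0 in the SSDDCS libraries, again with no overlap. Its pooled ratio was 1.19 (1.00 to 1.39), or 2.29-fold, and its upstream ratio 0.04 (-0.16 to 0.23). DBF4 and SLD3 differed by 0.12 with an interval from -0.13 to 0.37, which includes 0.

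SLD2 and DPB11, whose products bind each other, share the TRP1-marked construct. DPB11 (YJL090C, chromosome X, 262757 to 265051, minus strand) held 10 coding peaks with 23.7, 39.6 and 52.5 normalised reads (lowest, median, highest) in the control libraries and 50.6, 95.3 and 130.6 in the SSDDCS libraries. SLD2 (YKL108W, chromosome XI, 234426 to 235787, plus strand) held 7 coding peaks with 16.8, 28.7 and 39.8 in the control libraries and 32.1, 55.3 and 76.9 in the SSDDCS libraries. In both genes the strains overlapped slightly, with 11 and 10 of 12 SSDDCS libraries above every control library. The pooled ratios were 1.24 (1.09 to 1.40) for DPB11 and 0.97 (0.78 to 1.16) for SLD2, or 2.37-fold and 1.96-fold, and the difference between the pair was 0.27 (0.03 to 0.52). The upstream ratio of DPB11 was 0.10 (-0.09 to 0.28). SLD2 had the highest upstream ratio of the 6 genes, 0.24 (0.01 to 0.48), so that its coding minus upstream value of 0.73 (0.43 to 1.02) was the smallest. Its 2 upstream peaks within 500 bp of the start codon are also those outside the neighbouring gene. They gave 0.45 (0.06 to 0.85), just under the threshold of 0.5. In G1 alone, the highest of the 12 time points, all 5 gave 0.75 (-0.08 to 1.61) on 21 control and 34 SSDDCS reads.

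**Figure D1:**
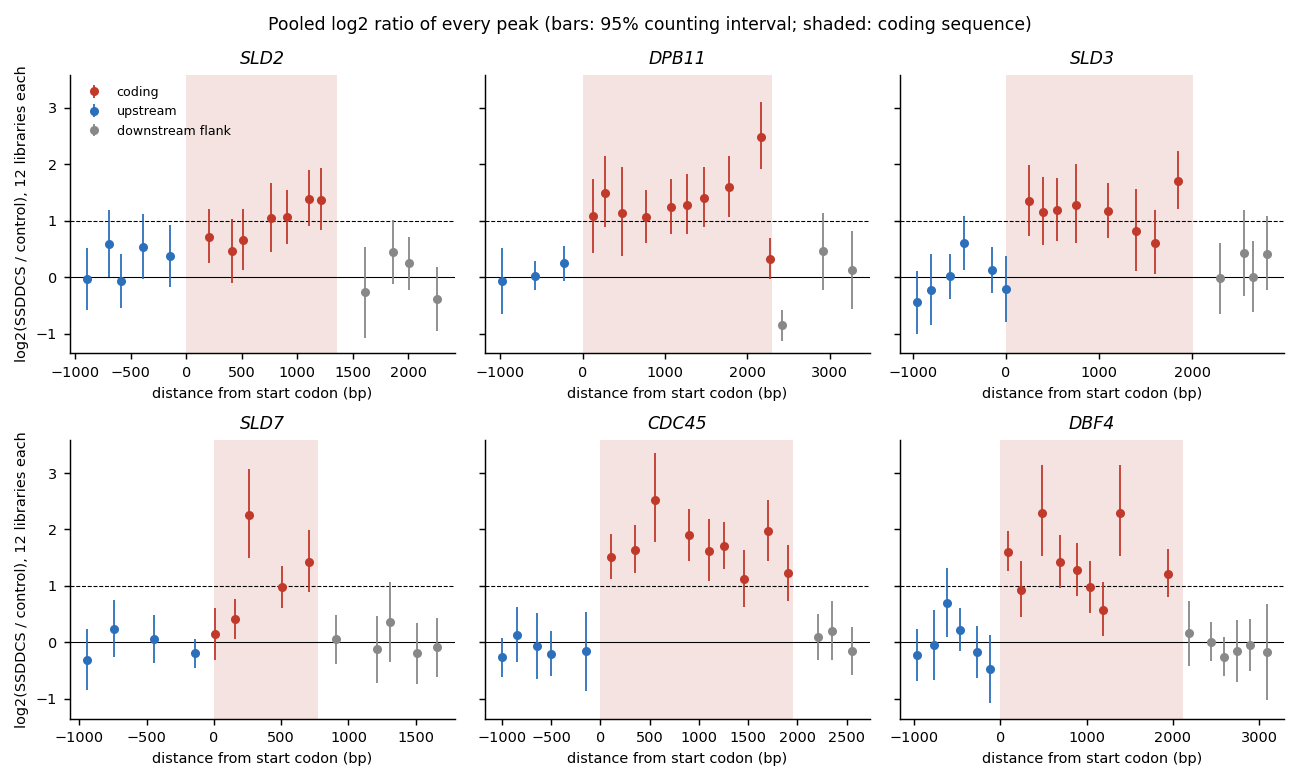
Pooled log2 ratio of SSDDCS to control for each of the 77 peaks and the 25 flank peaks, against distance from the start codon in bp, 1 panel per gene. Points are peaks summed over 12 libraries per strain, bars are 95% counting intervals, shading marks the coding sequence and the dashed line marks a log2 of 1. The median is 1.26 over the coding peaks and -0.05 over the upstream peaks.

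The ordering of the coding ratios was thus CDC45, DBF4, DPB11, SLD3, SLD2 and SLD7. Neighbours in this order from DBF4 down had overlapping intervals, whereas the interval of CDC45 lay above those of all the others. CDC45, DBF4 and DPB11 had intervals wholly above the log2 of 1 that 2 copies over 1 would give, SLD3 had its lower bound at 1.00, and the intervals of SLD2 and SLD7 included 1. The depth around the genes did not differ in the same way. Over all peaks from 1 to 10 kb on either side of each locus the pooled ratio lay between -0.07 for DPB11 and 0.08 for SLD2.

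The difference was present before release and at each time point. Summed over the 6 genes, the coding ratio was 1.31 in G1, the sample taken after galactose but before S phase. It was 1.18, 1.11, 1.09, 1.26, 1.14 and 1.21 at 5, 10, 15, 20, 25 and 30 min, and 1.25, 1.21, 1.18, 1.45 and 1.55 at 35, 40, 45, 50 and 60 min. The mean was 1.24 ± 0.14 (SD over 12 time points), and the upstream ratio of the sum stayed between -0.22 and 0.30 with a mean of 0.02 ± 0.15. In single genes the upstream ratio ranged more widely, from -0.97 (CDC45 at 45 min) to 1.48 (SLD3 at 5 min). The SLD3 value rested on 17 control and 48 SSDDCS reads. Each of the 6 genes was higher in the SSDDCS strain at 12 of 12 time points in coding sequence, a pattern found in 0.766% of the 5612 protein-coding genes. Upstream, SSDDCS was higher at 4 to 8 of 12.

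**Figure D2:**
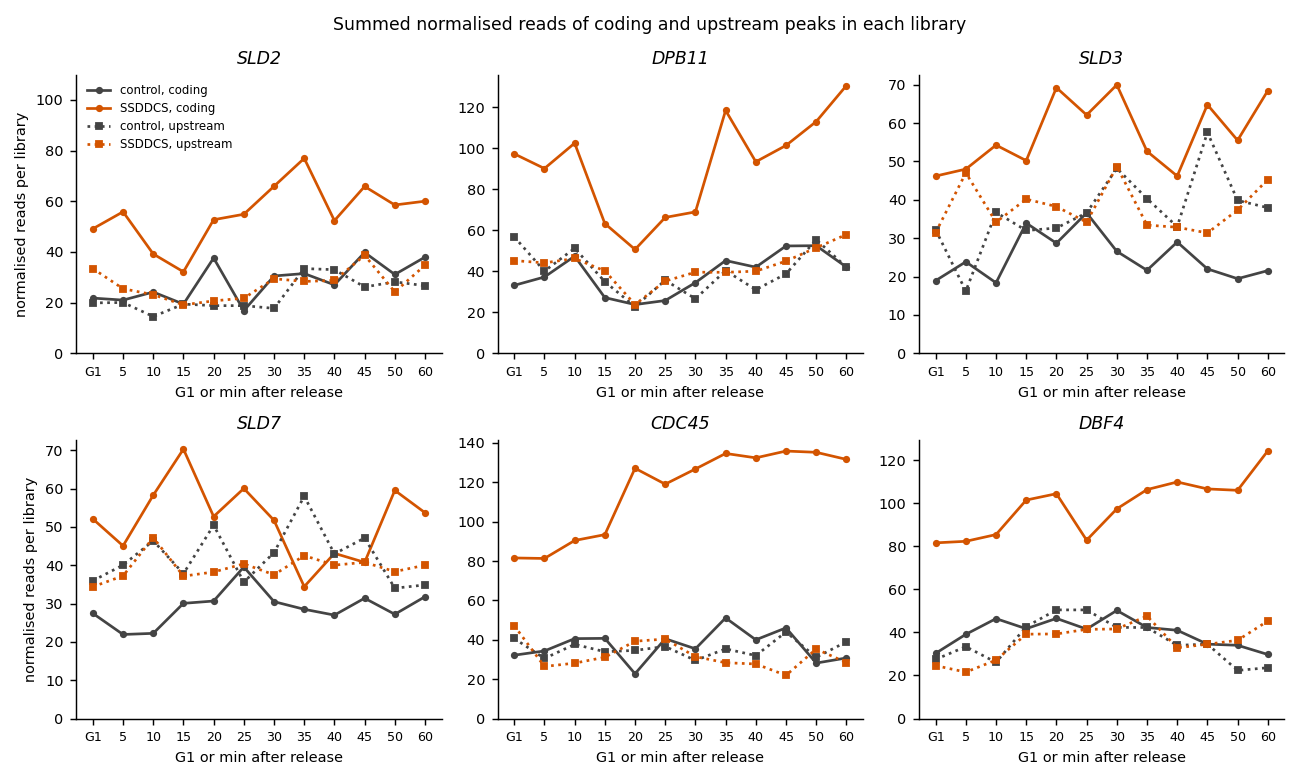
Summed normalised reads per library of the coding peaks (solid lines) and upstream peaks (dotted lines) of each gene in G1 and at 5 to 60 min after release, for the control strain (grey) and the SSDDCS strain (orange). Coding lines of the SSDDCS strain stand above those of the control at all 12 time points, and the upstream lines of the strains cross.

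The coding ratios moved differently over time from gene to gene, but no difference in course was tested. CDC45 had its lowest coding ratio, 1.14, at 10 min and its highest, 2.43, at 20 min (mean 1.63 ± 0.43), and its summed reads in the SSDDCS strain lay from 81.3 to 93.4 between G1 and 15 min and from 119.0 to 135.8 from 20 min on. DBF4 had a mean of 1.04 over 5 to 30 min and of 1.59 over 35 to 60 min, with the highest ratio, 2.03, at 60 min. For SLD7 the order was the other way, 0.94 over 5 to 30 min and 0.63 over 35 to 60 min, with its lowest ratio of 0.26 at 35 min. DPB11 varied least, with a mean of 1.22 ± 0.21. Counting error at a single time point is wide at this depth. In G1 the SLD2 coding peaks held 23 control and 50 SSDDCS reads, and the interval of the ratio ran from 0.44 to 1.95. At 35 min the interval of the SLD7 ratio ran from -0.49 to 1.04. The highest CDC45 ratio, at 20 min, fell on its fewest control reads, 23.

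Peak by peak, the excess covered most of the coding sequence, with the exceptions given below. All 77 peaks passed a minimum of 48 reads over the 24 libraries. Of the 48 coding peaks, 44 were called higher (91.7%) and 0 lower. All 48 had a ratio above 0, and 45 had an interval wholly above 0. Among the 43617 peaks inside protein-coding genes, 10.5% were called higher and 4.31% lower by the same rule. At a log2 of at least 1 the count was 36 of 48, against 0.802% of peaks inside genes. The SSDDCS strain was higher at 11 or 12 of 12 time points in 35 of the 48 peaks, against 1.88% of peaks inside genes. Upstream, 4 of 29 peaks were called higher (13.8%) and 0 lower, while 7.12% of all peaks within 1 kb upstream of a gene were called higher and 4.04% lower. Of these 29 peaks, 13 had a ratio above 0 and 3 an interval wholly above 0. The SSDDCS strain was higher at 11 or 12 of 12 time points in 2 of them. The median ratio was 1.26 over the coding peaks (0.15 to 2.52) and -0.05 over the upstream peaks (-0.47 to 0.69).

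Coding peaks named for their reads mostly show the same step, but the DPB11 peak and 1 of the tied SLD7 peaks were not called higher. At the DBF4 peak at 560538, 88 bp into the gene, the control libraries held 2, 8.5 and 12 reads (lowest, median, highest) and the SSDDCS libraries 13, 23 and 30, with no overlap, a ratio of 1.61 (1.26 to 1.97). The CDC45 peak at 345838, 104 bp into the gene, held 0, 6 and 11 reads in the control libraries and 7, 17.5 and 24 in the SSDDCS libraries, a ratio of 1.52 (1.13 to 1.93). Both are the coding peak nearest the start codon as well as the strongest. In SLD2, DPB11 and SLD3 the coding peaks nearest the start codon were others, at 234635, 264930 and 296180. Their ratios were 0.72 (0.24 to 1.20), 1.08 (0.43 to 1.75) and 1.34 (0.73 to 1.98). The SLD3 peak at 297780, near the end of its gene, held 2, 3.5 and 7 reads against 5, 10.5 and 19, a ratio of 1.71 (1.20 to 2.24). At the SLD2 peak at 235335 the reads were 2, 5 and 8 against 4, 10 and 15, a ratio of 1.06 (0.59 to 1.54). The SLD7 peak at 440655 held 5, 8 and 12 reads in the control libraries and 8, 16 and 23 in the SSDDCS libraries, a ratio of 0.98 (0.62 to 1.36). The SLD7 peak at 441005, tied with it for reads, held 7, 10 and 14 against 7, 12 and 20, a ratio of 0.42 (0.07 to 0.77). At the strongest DPB11 coding peak, 262780, the reads were 4, 10 and 16 against 4, 11 and 18. Its ratio of 0.33 (-0.04 to 0.70) had an interval that included 0. At all of these peaks but the DBF4 peak the strains overlapped in some libraries. Overlap was absent in 5 of the 48 coding peaks and in 0 of the 29 upstream peaks.

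Upstream peaks of similar or greater depth did not show the step. The strongest of all, 142 bp upstream of SLD7 at 441305, held 17, 22.5 and 32 reads (lowest, median, highest) in the control libraries and 12, 20 and 27 in the SSDDCS libraries, a ratio of -0.19 (-0.45 to 0.06). The DPB11 peak at 265631, 580 bp upstream, held 10, 21.5 and 37 against 13, 21.5 and 29, a ratio of 0.02 (-0.23 to 0.28). The strains overlapped in both. The strongest upstream peaks of the remaining genes had ratios of -0.07 (SLD2, 233835), 0.01 (SLD3, 295329), -0.27 (CDC45, 346938) and 0.23 (DBF4, 561088), all with intervals that included 0. The upstream peaks nearest the start codons had ratios of 0.38 (SLD2, 234285), 0.24 (DPB11, 265281), -0.21 (SLD3, 295929), -0.16 (CDC45, 346088) and -0.47 (DBF4, 560738), and their intervals included 0 as well.

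The 4 upstream peaks called higher were at SLD2, SLD3 and DBF4. The SLD2 peaks at 233735 and 234035 had ratios of 0.59 (0.003 to 1.18) and 0.54 (-0.04 to 1.12). The SLD3 peak at 295479 had 0.60 (0.13 to 1.08), and the DBF4 peak at 561238 had 0.69 (0.09 to 1.31). All 4 held between 39 and 65 control reads. The first lay inside the neighbouring gene HAP4 and the SLD3 peak inside YGL114W. No upstream peak reached a log2 of 1.

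**Figure D3:**
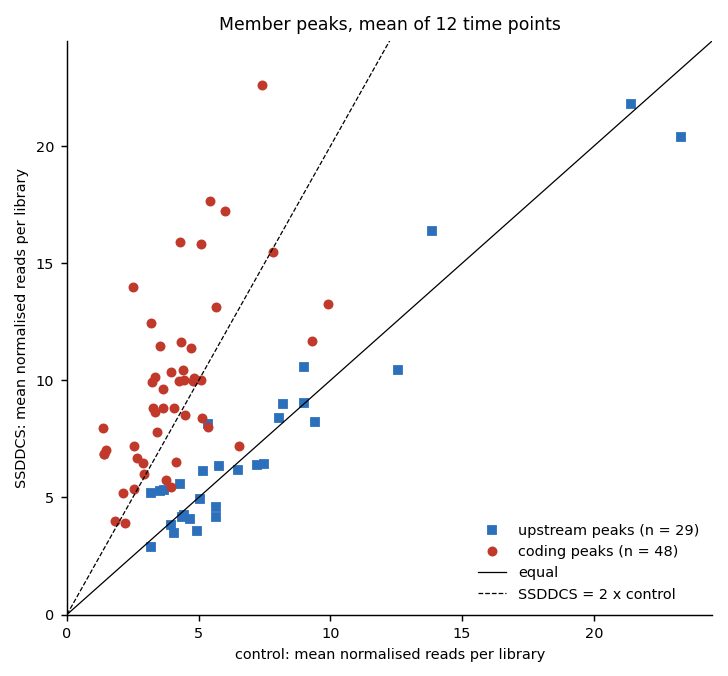
Mean normalised reads per library of each peak over 12 time points, control strain on the x axis and SSDDCS strain on the y axis, for the 48 coding peaks (circles) and 29 upstream peaks (squares). The solid line marks equal reads and the dashed line 2-fold. Of the 48 coding peaks, 36 lie on or above the dashed line and the others between the lines, some near the solid line. Upstream peaks lie around the solid line.

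Summed over the 6 genes, the ratio stepped up between the upstream flank and the first part of the coding sequence, but SLD7 and SLD2 differed from the sum. By distance, the 6 genes together gave -0.02 (-0.13 to 0.09) beyond 500 bp upstream and 0.05 (-0.06 to 0.16) from 1 to 500 bp upstream. With the coding sequence cut into 4 parts of equal length, the ratios from 5′ to 3′ were 1.15, 1.31, 1.24 and 1.34. Past the stop codon they were -0.19 (-0.32 to -0.06) up to 500 bp and 0.02 (-0.13 to 0.17) beyond 500 bp. The value up to 500 bp rested largely on 1 DPB11 peak at -0.85, described below. The other genes lay between -0.08 and 0.20 there, and their intervals included 0. In SLD2 the same 4 parts gave 0.72, 0.56, 1.05 and 1.38, and in SLD7 0.32, 2.25, 0.98 and 1.43, so both of the genes with the lowest sums had their lowest ratios in the 5′ part of the gene. In SLD7 the ratio rose most between the peaks at 159 and 259 bp from the start codon, from 0.42 (0.07 to 0.77) to 2.25 (1.50 to 3.07). The peak at 259 bp held only 18 control reads, and the next, at 509 bp, had a ratio of 0.98 (0.62 to 1.36). In SLD2 the interval of the first 500 bp upstream given above overlapped those of the first (0.24 to 1.20) and the second (0.18 to 0.95) part. The place of the step in either gene was read from these values and was not tested.

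Of the 4 coding peaks that were not called, 2 lay within 100 bp of the start or stop codon. In SLD7 the peaks at 441155 and 441005, 9 and 159 bp into the gene, had ratios of 0.15 (-0.31 to 0.61) and 0.42 (0.07 to 0.77). In DPB11 the peak at 262780, next to the stop codon, had a ratio of 0.33 (-0.04 to 0.70). The remaining peak was inside SLD2 at 234835, 410 bp from the start, with a ratio of 0.46 (-0.11 to 1.03). A SLD3 peak at 295929, just upstream of the start codon, held 1, 4 and 9 reads (lowest, median, highest) in the control libraries and 0, 4 and 8 in the SSDDCS libraries. The first coding bases of SLD7 and SLD3, with the start codon in capitals, show where the upstream flank ends.
SLD7 (chrXV:441134-441163, minus strand): ATGtcacggaaattatgcacactaaatttt
SLD3 (chrVII:295932-295961, plus strand): ATGgaaacatgggaagtcatagcatcggta

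At the end of DPB11, peaks on either side of the stop codon differed in direction, a contrast singled out after the values were seen. The coding peak at 262880 held 0, 2 and 5 reads (lowest, median, highest) in the control libraries and 6, 12 and 21 in the SSDDCS libraries, with no overlap. Its ratio was 2.49 (1.92 to 3.10), or 5.61-fold, on 30 and 165 reads. The last coding peak, at 262780, lay between and had the ratio of 0.33 given above. Past the stop codon, in intergenic sequence, the peak at 262630 went the other way, with 11, 30.5 and 40 reads in the control libraries and 5, 14.5 and 27 in the SSDDCS libraries. Its ratio was -0.85 (-1.12 to -0.58) on 326 and 175 reads, lower in SSDDCS at 11 of 12 time points, and 7 control libraries lay above every SSDDCS library. By the threshold for lower, 4.10% of all peaks were called. Of the 25 peaks past the stop codons this was the only one called lower. The bases at both peaks are given in the direction of DPB11, with no capitals.
DPB11 coding (chrX:262850-262910, minus strand): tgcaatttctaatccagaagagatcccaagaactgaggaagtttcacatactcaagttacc
DPB11 past the stop codon (chrX:262616-262644, minus strand): tgctcgcgtgaaaaaacagcatgagaaaa

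The largest folds came from coding peaks with few control reads. Besides the DPB11 peak at 262880, CDC45 at 345388 went from 17 to 94 reads (5.76-fold), DBF4 at 559238 and at 560138 from 17 to 81 in each case (4.92-fold and 4.93-fold), and SLD7 at 440905 from 18 to 83 (4.75-fold). When the 48 coding peaks were split by control level into 3 sets of 16, the pooled ratios were 1.66 (1.51 to 1.82), 1.28 (1.15 to 1.40) and 1.04 (0.94 to 1.14) from the lowest to the highest set. A level taken from the same libraries as the ratio favours high ratios at low levels. With the level from alternate time points and the ratio from the others, the sets gave 1.51 (1.31 to 1.72), 1.25 (1.07 to 1.43) and 1.09 (0.95 to 1.24), while other coding peaks in the same range of reads gave 0.12, 0.08 and 0.04. As a difference instead of a ratio, the excess of the SSDDCS strain was a median of 5.37 normalised reads per library and peak, with a range from 0.69 to 15.2.

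Against the genome, the 6 genes stood at the upper end. Of the 5612 genes with at least 200 reads in coding peaks, 39 were called higher (0.695%). Ranked by coding ratio, CDC45, DBF4, DPB11, SLD3, SLD2 and SLD7 took places 3, 4, 5, 6, 7 and 9. The remaining places among the first 9 went to HIS3 (1.83), TRP1 (1.67) and LEU2 (0.97), the markers of the constructs, named after their values were seen. Place 10 followed at 0.76 with TRM112. The median of the other genes was 0.06, and the central 95% of them lay between -0.26 and 0.39. Complete separation of the libraries was found in a set of 6 genes that held CDC45, DBF4 and SLD3 together with the 3 markers. Coding minus upstream reached 0.5 in 1.62% of genes, and in all 6 genes here.

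**Figure D4:**
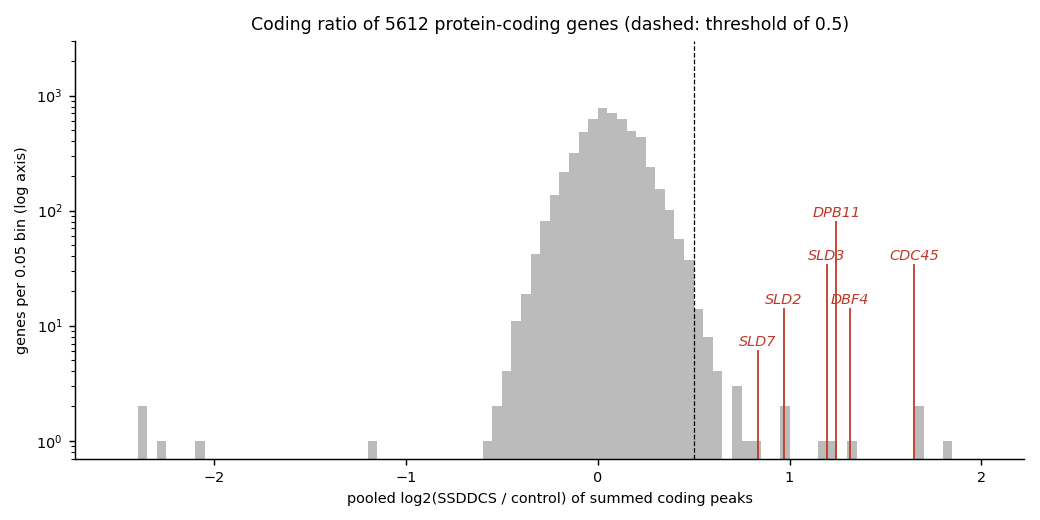
Histogram of the pooled log2 ratio of SSDDCS to control over summed coding peaks for 5612 protein-coding genes, in bins of 0.05 with a log count axis. Red lines mark the 6 initiation factor genes (their heights carry no value), from SLD7 at 0.84 to CDC45 at 1.65, and the dashed line marks the threshold of 0.5.

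In the control strain most of these genes held few sub-nucleosomal reads for their length. In coding reads per kb, SLD3 lay at percentile 0.944 of the 5612 genes, DPB11 at 9.59, DBF4 at 19.4, CDC45 at 20.0 and SLD2 at 30.3, while SLD7 lay at 88.9. In the SSDDCS strain the same genes lay at percentiles 66.7, 90.0, 93.8, 96.5, 90.5 and 97.4. Genes of the same pathway with no added copy were near the genome median. Of 31 listed genes (the origin recognition complex, Mcm2-7 and its loaders, the Cdc7 kinase, GINS, DNA polymerase epsilon, fork proteins and RPA), 30 had enough reads, with 0 called higher and 0 lower. Their median ratio was 0.07, close to the 0.06 of all genes tested. The highest were CDC6 (0.37), a helicase loader, and MCM10 (0.34), needed for helicase activation, and the lowest were the GINS subunit genes PSF1 (-0.26) and PSF2 (-0.08).

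The classes of peak were alike in base composition. In windows reaching 50 bp to either side of each peak position, the median GC content was 40.1% over the coding peaks and 41.6% over the upstream peaks, against 41.6% of all peaks inside genes and 40.6% of all peaks within 1 kb upstream. Windows were searched on both strands for the MCB element (ACGCGT), which is bound by the MBF complex of G1/S genes, for SCB (CGCGAAA), Reb1 (TTACCCG) and the Gal4 motif. An MCB match was held by 3 of the 29 upstream windows (10.3%, against 1.17% of all windows within 1 kb upstream) and by 0 of the 48 coding windows. The DBF4 window at 560888 also held a Reb1 match, the SLD3 window at 295329 held a Gal4 match, and no member window held SCB. These matches are descriptions of sequence only. The MCB windows are shown because they lie in native promoters whose ratios had intervals that included 0, namely 0.38 (-0.17 to 0.93) for SLD2 at 234285, -0.16 (-0.87 to 0.54) for CDC45 at 346088 and -0.17 (-0.64 to 0.29) for DBF4 at 560888. Capitals mark the element, and CDC45 has a pair of matches.
SLD2 (chrXI:234306-234333, plus strand): acatcacgtttACGCGTatggtgaaaca
CDC45 farther from the start (chrXII:346105-346132, minus strand): tttcattcacgACGCGTatttttttttc
CDC45 nearer the start (chrXII:346075-346102, minus strand): catatcatctaACGCGTtttaagaaatt
DBF4 (chrIV:560849-560876, minus strand): tttttttgcaaACGCGTcttaggtcgat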

How the data were processed

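The deposited table held a whole-number count of reads for each peak and library, beside the peak position in bp. The authors mapped fragments below 100 bp with Bowtie2 (2.2.6) to S288C R64 (sacCer3), handled them with SAMtools (0.1.19), sampled equal reads per fragment size in each library, called peaks on the merged libraries and counted reads per peak. The sampling evens out depth and fragment length before counting. The counting width and whether positions start at 0 or 1 were not given in the sources used here, so distances may be off by 1 bp. Reads from W303 were placed on S288C, and native and added copies map to the same position.

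Counts were divided by the library total over all peaks and scaled to the mean total (Python 3.11.15, numpy 2.4.6, pandas 2.3.3, scipy 1.17.1). Totals were 481930 to 536253 reads. Pooled ratios are log2 of summed scaled reads, with exact Clopper-Pearson intervals of the SSDDCS share converted to log2. Single time points used a pseudocount of 1 on the sum over a locus. Peaks with under 48 reads over 24 libraries and genes with under 200 were left out of calls. A high-confidence peak had a sum of log2(normalised reads + 1) over libraries above 75. Only 9 of the 48 coding peaks and 8 of the 29 upstream peaks reached this, and peaks below it were kept. The sequence at 1 DPB11 peak is not reported here. Gene bounds and sequences came from RefSeq, which gives no untranslated regions for yeast.

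All 6 genes were described, with the coding and the upstream peak of most reads and those nearest the start codon in each gene, and the highest and lowest 2 of the other initiation genes. Other features are marked as chosen after their values were seen. Members and lists were chosen with earlier results of these data known. With 1 library per strain and time point, no test between strains was run. Alternatives were other scalings (TMM by edgeR 4.0.16, R 4.3.3, median-of-ratios, totals without the ribosomal DNA array, the local level), time points left out, other thresholds, filters, pseudocounts and peak subsets. The pooled ratio was also computed on simulated counts, with a 2-fold change built into 200 genes and counting error alone. The intervals covered the set value in 93.0% of these genes. Spread between cultures was not simulated, so it was not tested.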

Additional observations from a re-analysis of the deposited data

How the results depend on the processing

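Of 300 recomputed values, 284 stayed within the counting interval or within 1.5 times a reported count, and 16 moved further. The 300 values are not independent, and some could not move. Leaving out G1 and keeping the time points after release give the same sum. Dropping the read filter added no member peak, and SLD2 and SLD3 have no coding peak within 100 bp of the start or stop codon. Sums without 1 time point share most reads with the main value. The sign changed in 12 of the 300, all upstream ratios under the threshold (DPB11, SLD3, CDC45 and DBF4), and in 0 of the coding ratios. Strains were matched by time point, but no fit with a replicate block was possible because each strain and time point was 1 library and the labels give no replicate numbers. The sign changes were in G1 alone for DPB11 and CDC45, in G1 alone (-0.03) and without 5 min (-0.07) for SLD3, and under 8 settings for DBF4 (-0.16 to -0.01, against 0.01). With 1 time point left out in turn, the coding ratios ranged from 0.92 to 1.02 (SLD2), 1.20 to 1.28 (DPB11), 1.15 to 1.26 (SLD3), 0.79 to 0.88 (SLD7), 1.59 to 1.69 (CDC45) and 1.25 to 1.36 (DBF4). G1 alone moved coding ratios to 1.17 (SLD2), 1.55 (DPB11) and 1.34 (CDC45), and upstream ratios to 0.75 (SLD2), -0.33 (DPB11) and 0.21 (CDC45). For DPB11 the coding ratio was 0.33 with the single high-confidence peak (262780, at the stop codon), 1.44 without the strongest peak and 1.44 without peaks within 100 bp of the start or stop codon. SLD2 and SLD3 have no high-confidence coding peak, so that alternative gave no value there. A pseudocount of 10 lowered the mean over time points to 1.05 (DPB11), 0.95 (SLD3), 1.42 (CDC45) and 1.13 (DBF4). At a log2 of at least 1, 0 upstream peaks were called higher instead of 4, and 6 genes instead of 39. With TMM scaling the count of genes was 24. The recomputations of the DPB11 peak past the stop codon (-0.92 to -0.80), the upstream ratios outside other genes and the control level from alternate libraries were chosen after seeing the data. Depth limits single peaks most, since the shallowest coding peaks held 17 control reads over 12 libraries.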
